A study of Asparagus officinalis with 12 samples.

Results

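Genes of flavonoid and anthocyanin synthesis were chosen by name. Of the 35166 genes in the deposited table, 51 held 1 of 11 words in the leading, RefSeq description, which were chalcone, flavonol, flavanone, flavonoid, dihydroflavonol, anthocyanidin, anthocyanin, leucoanthocyanidin, isoflavone, flavone and naringenin. The rule used no expression value, though it was set with earlier results of these data known. The 12 RNA libraries came from stem segments of *Asparagus officinalis* 'Fengdao 2', 3 per stage, and a stage name gives the plant height in cm (H-10 to H-60 by way of H-25 and H-40). All plants belonged to the same cultivar, and only stems 13 to 15 mm thick were taken. The H-10 segment was cut 3 to 6 cm above ground and the later segments 17 to 20 cm above ground, so that a difference between H-10 and H-25 cannot be told apart from a difference between these positions. The column names of the table give a number for the height and a number for the replicate, and they were read as the heights in rising order. This reading bears on every value below, and whether the replicate numbers follow those of the labels could not be checked.

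Flavonoids are phenolic compounds made from phenylalanine by way of coumaroyl-CoA. Chalcone synthase (*CHS*) joins coumaroyl-CoA with malonyl-CoA, chalcone isomerase (*CHI*) closes the ring to naringenin, and flavanone 3-hydroxylase (*F3H*) makes the dihydroflavonols. Flavonol synthase (*FLS*) turns these into flavonols such as quercetin, while dihydroflavonol 4-reductase (*DFR*) and leucoanthocyanidin dioxygenase (*LDOX*) lead to the anthocyanidins, which become the red and purple anthocyanins once a sugar is attached. Flavonoids screen ultraviolet light in the outer cell layers, and in asparagus spears flavonol glycosides such as rutin and anthocyanins of the spear tip and scales are the best known.

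The members covered each step of this pathway but were expressed unequally. In the order of the pathway there were 3 *CHS*, 4 *CHI*, 3 *FLS* or *F3H*, 8 P450 hydroxylase, 3 *DFR* and 4 leucoanthocyanidin or anthocyanidin enzyme genes. Enzymes that decorate flavonoids followed, with 12 glycosyltransferase genes and 9 acyl, methyl or sulfo transferase genes, and 5 genes were named isoflavone reductase-like. No regulator was among the members. The second, Swiss-Prot description of the table held 1 of the 11 words of the rule or the word myricetin for 34 of the 51. Such a match need not name an enzyme of flavonoids. It took in the 5 isoflavone reductase-like genes, and LOC109821880 and LOC109829369 with the second description Chalcone isomerase-like protein 2.

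A gene was tested if its FPKM (fragments per kilobase of gene, scaled by a library total) reached 1 in at least 3 libraries. This held for 31 of the 51 members and for 20352 of all genes. Of the 20 members that did not pass, 7 were at 0 in all 12 libraries and the other 13 did not exceed 1.24 FPKM in any library. Both genes described as anthocyanidin reductase ((2S)-flavan-3-ol-forming), LOC109821630 and LOC109827492, were at 0 throughout. This enzyme and leucoanthocyanidin reductase start the branch to flavan-3-ols, the units of condensed tannins. The leucoanthocyanidin reductase-like gene LOC109834931 had 0.420 FPKM in H-10 replicate 1 and 0 in the other 11 libraries. A count of 3 fragments, which a count of 0 still allows, would be at most 0.237 FPKM for LOC109821630 and 0.572 FPKM for LOC109827492 in a single library. Transcripts of these anthocyanidin reductase genes were thus not detected at this depth. Of 12 glycosyltransferase genes 4 were at 0 throughout, as was a chalcone synthase 1B-like gene (LOC109836525). Just inside the filter was LOC109830127 with 3 libraries at 1 FPKM or above, and just outside it was LOC109849617 with 1 such library.

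**Figure D1:**
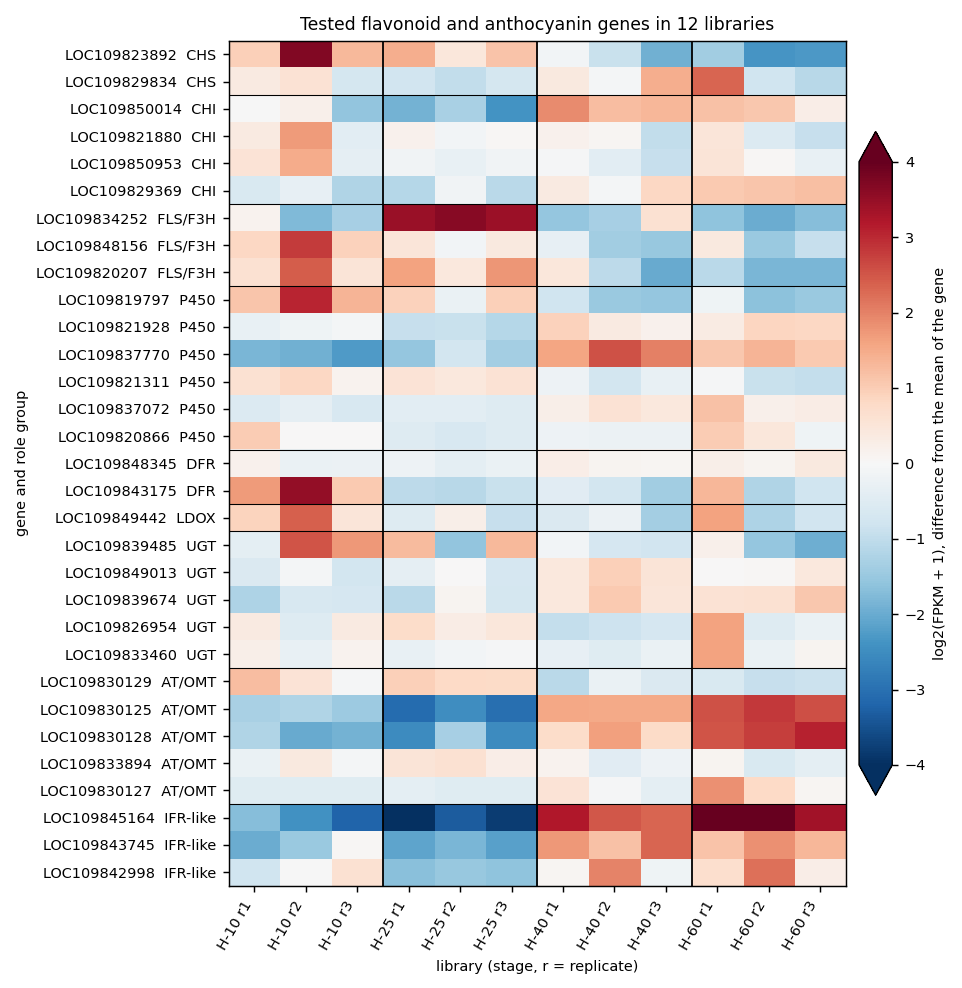
Level of the 31 tested members (rows, by role group) in the 12 libraries (columns), as log2(FPKM + 1) minus the mean of the gene over all libraries, with red above and blue below that mean. *CHS* LOC109823892, *F3H* LOC109848156, *FLS* LOC109820207, *F3'H* LOC109819797, *DFR* LOC109843175 and *LDOX* LOC109849442 are highest in H-10 replicate 2, while the methyltransferases LOC109830125 and LOC109830128 and the isoflavone reductase-like genes turn from blue to red between H-25 and H-40.

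The depth was alike in all libraries. Multiplied by gene length, the FPKM values were whole multiples of 1 step per library for 100% of values (tolerance 0.01), and the fragments recovered in this way came to 13468440 to 16980659 per library. For a gene 1 kb long, a single fragment equals 0.0522 to 0.0795 FPKM. Genes of chlorophyll-binding and photosystem proteins, which mark green tissue, summed to between 5975 and 21218 FPKM in every library, and genes of secondary walls to between 123 and 4177 FPKM. The methods name biological replicates of each stage and sequencing repeated 3 times, but the sources used here do not tie stems to libraries. The p-values therefore rest on the spread between these libraries, part of which may be technical. In such bulk samples a lower value can mean fewer cells of a type or less RNA per cell, and these cannot be told apart. The genes LOC109848156 (*F3H*), LOC109843175 (*DFR*) and LOC109849442 (*LDOX*) were over 2-fold higher in H-10 replicate 2 and in H-60 replicate 1 than in the other libraries of those stages. LOC109823892 (*CHS*) was so in H-10 replicate 2, while its H-60 values of 0.929, 0 and 0.0493 FPKM were near the floor. Results that rest on these libraries are given with and without them.

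The members did not move as a block. From H-25 to H-40 the most abundant gene each of *CHS* (LOC109823892) and flavonoid 3'-hydroxylase (*F3'H*, LOC109819797) and the *FLS* gene LOC109820207 fell. The most abundant *CHI* gene (LOC109850014), a second *F3'H* gene (LOC109837770), a pair of methyltransferase genes and all 3 tested isoflavone reductase-like genes rose, with LOC109845164 of the last group reaching more than any other member. The genes of *F3H* (LOC109848156), *DFR* (LOC109843175) and *LDOX* (LOC109849442) were not called in that step. A member was called at an adjusted p of at most 0.05 (limma, Benjamini-Hochberg adjustment over all tested genes, as for all adjusted p below) and a log2 difference of FPKM + 1 of at least 1 in size. From H-10 to H-25, 3 of the 31 tested members were called (9.68%, against 4.45% of all tested genes), 1 higher and 2 lower at H-25 (against 1.54% and 2.91% of all tested genes). With FPKM rescaled to TPM, which moved the median log2 difference of all tested genes in this step to -0.18, 1 was higher and 5 were lower, and 15.7% of all calls were higher in place of 34.6%. From H-25 to H-40, 16 of the 31 were called (51.6%, against 24.1% of all tested genes), 10 higher and 6 lower at H-40 (against 11.9% and 12.2%). From H-40 to H-60, 2 were called, both higher (6.45%, against 5.31% in all, 3.02% higher and 2.28% lower). Between H-25 and H-60, which share the same segment position, 18 were called (58.1%, against 32.5%), 12 higher and 6 lower at H-60 (against 16.3% and 16.2%).

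The successive steps share libraries, since each middle stage enters the step before and the step after it. The median log2 difference of the tested members was -0.51, 0.33 and 0.15 in the successive steps and 0.64 between H-25 and H-60, beside 0, 0.01, 0.01 and 0.02 over all tested genes. The fold is smaller on the log2(FPKM + 1) scale than on the FPKM scale for genes with low values. The number of members called from H-25 to H-40 depended on single libraries and was 10 when H-25 replicate 1 was left out, 11 when H-25 replicate 3 or H-40 replicate 2 was left out and 12 when H-40 replicate 3 was left out. The calls over all tested genes fell too, from 4897 of 20352 to 3964 of 20123, 4148 of 20104, 4263 of 20189 and 4812 of 20214 in these fits. Without H-25 replicate 2, 17 members and 6143 of 20242 genes were called. With both H-10 replicate 2 and H-60 replicate 1 left out, 18 of 29 tested members were called from H-25 to H-40 (4786 of 19880 genes in all). In H-10 vs. H-25, H-40 vs. H-60 and H-25 vs. H-60, 3, 2 and 17 members were then called (283, 485 and 6336 genes in all). By stage of highest mean FPKM, 10 of the 31 members were highest at H-10 (20.7% of all tested genes), 3 at H-25 (29.9% of all), 4 at H-40 (19.3% of all) and 14 at H-60 (30.1% of all). Without H-60 replicate 1 the number at H-60 was 9, and without H-10 replicate 2 the number at H-25 was 6.

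**Figure D2:**
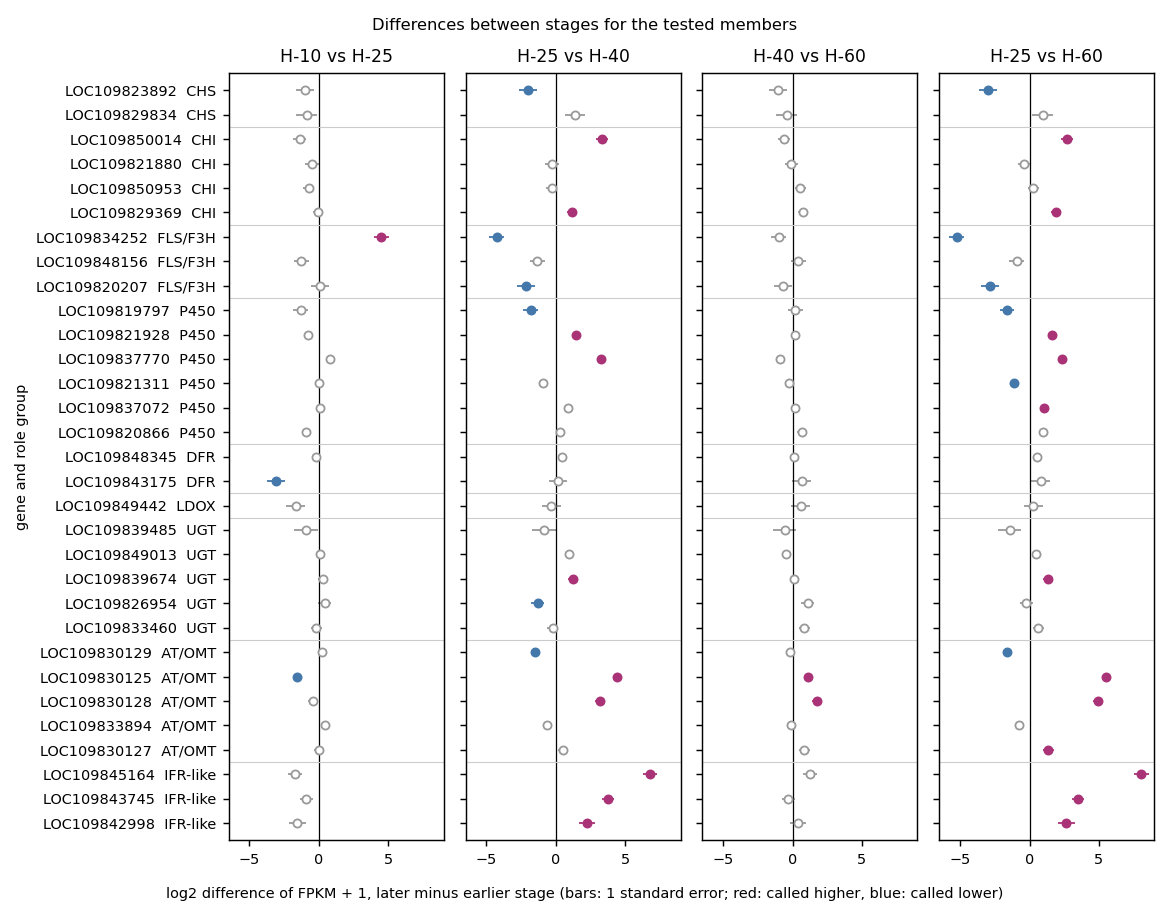
Log2 difference of FPKM + 1, later minus earlier stage, for the 31 tested members in 4 comparisons (bars, 1 standard error; filled red, called higher; filled blue, called lower; open, not called). The second panel holds 16 calls in both directions, with *CHS* LOC109823892, *FLS* LOC109820207 and *F3'H* LOC109819797 left of 0 and *CHI* LOC109850014, the methyltransferases LOC109830125 and LOC109830128 and the isoflavone reductase-like genes right of it.

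*CHS* is the entry enzyme of the pathway. Its main gene, chalcone synthase 1-like LOC109823892 (chromosome 9, 66182613 to 66191667, coordinates of Aspof.V1), had 8.85, 65.6 and 11.5 FPKM in H-10 replicates 1 to 3 and 12.8, 5.97 and 10.2 FPKM at H-25. It had 3.76, 1.73 and 0.344 FPKM at H-40 and 0.929, 0 and 0.0493 FPKM at H-60. The H-10 and H-25 libraries overlapped, whereas every H-25 library lay above every H-40 and H-60 library. From H-25 to H-40 the gene fell (log2 difference of FPKM + 1 of -1.98, standard error 0.65, adjusted p = 0.0296). It was lower at H-60 than at H-25 (log2 difference -3.02, standard error 0.65, adjusted p = 0.00231). The first of these calls was lost when replicate 1 or 3 of H-25 or replicate 2 or 3 of H-40 was left out (adjusted p up to 0.115). It was also lost with a pseudocount of 0.1 and without the filter on low values. The second was kept without any single library, though limma voom on the recovered fragments did not call either. A second gene of this description group, chalcone synthase 6-4-like LOC109829834, had 10.3 FPKM in H-60 replicate 1 and 0.0448 to 5.23 FPKM in the other 11 libraries, and was not called in any comparison with all libraries. It had 0.329, 0.141 and 0.395 FPKM at H-25 and 1.95, 1.11 and 5.23 FPKM at H-40, without overlap and opposite to LOC109823892. This higher level at H-40 (log2 difference 1.40, adjusted p = 0.152) passed when H-60 replicate 1 was left out, when H-10 replicate 2 was left out with it, and with only the 2 stages in the model.

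*CHI* ran in the other direction. Its main gene LOC109850014 (chromosome 7, 7687894 to 7689906) had 199.9, 229 and 65.9 FPKM at H-10 and 53.0, 81.7 and 37.8 FPKM at H-25. It had 743, 471 and 506 FPKM at H-40 and 457, 428 and 241 FPKM at H-60. The H-40 and H-60 libraries all lay above the earlier ones, and *CHI* was above *CHS* in each of the 12 libraries. The rise from H-25 to H-40 had a log2 difference of 3.34 (standard error 0.44, adjusted p = 1.48e-04) and a ratio of mean FPKM of 9.97, and the call was kept under every alternative run. The difference between H-10 and H-25 (-1.39, adjusted p = 0.0842) was not called with all libraries, but passed if H-10 replicate 3 (-1.95) or H-25 replicate 2 (-1.67) was left out.

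The other 3 members of this group were described as probable chalcone--flavonone isomerase 3. Relatives of this kind are known in Arabidopsis and other plants as *CHI*-like proteins without isomerase activity that bind *CHS* and raise flavonoid production. LOC109821880 had 45.2, 116 and 26.3 FPKM at H-10, 39.9, 32.5 and 36.8 FPKM at H-25, 40.4, 37.0 and 17.4 FPKM at H-40, and 49.5, 23.6 and 18.2 FPKM at H-60. Its stages overlapped in every comparison, with the highest value in H-10 replicate 2. LOC109850953 was highest in the same library (15.5 FPKM, against 2.11 to 7.65 FPKM in the other 11), and neither gene was called in any comparison. LOC109829369 lay lower, at 0.299 to 1.71 FPKM in the H-10 and H-25 libraries and 1.84 to 5.83 FPKM in those of H-40 and H-60. It rose from H-25 to H-40 (log2 difference 1.16, standard error 0.33, adjusted p = 0.0145), a call that was lost without H-25 replicate 1, H-25 replicate 3 or H-40 replicate 3 (adjusted p up to 0.0646).

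Next in the pathway come 2-oxoglutarate-dependent dioxygenases. *F3H* (naringenin,2-oxoglutarate 3-dioxygenase-like LOC109848156) had 27.4, 111 and 29.9 FPKM at H-10, 21.6, 13.9 and 20.1 FPKM at H-25, 11.8, 5.18 and 4.67 FPKM at H-40, and 20.1, 4.74 and 7.55 FPKM at H-60. It was not called in any comparison (H-25 vs. H-40, log2 difference -1.33, standard error 0.56, adjusted p = 0.0760), although the H-25 and H-40 libraries did not overlap. That fall passed without H-10 replicate 2 (log2 difference -1.33) or without H-40 replicate 1 (-1.70). Without H-60 replicate 1, the library with 20.1 FPKM, the log2 difference between H-25 and H-60 was -1.46 and passed, against -0.93 with it.

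*FLS* (flavonol synthase/flavanone 3-hydroxylase-like LOC109820207, second description Flavonol synthase 1) had 17.8, 65.9 and 16.9 FPKM at H-10 and 37.3, 15.8 and 41.6 FPKM at H-25. It had 16.1, 5.03 and 2.06 FPKM at H-40 and 4.91, 2.49 and 2.49 FPKM at H-60. The H-25 and H-40 libraries overlapped by H-25 replicate 2 and H-40 replicate 1, and those of H-25 and H-60 did not overlap. The gene fell from H-25 to H-40 (log2 difference -2.15, standard error 0.63, adjusted p = 0.0178) and was lower at H-60 than at H-25 (log2 difference -2.86, standard error 0.63, adjusted p = 0.00268). The fall to H-40 was lost when replicate 1 or 3 of H-25 or replicate 2 or 3 of H-40 was left out (adjusted p up to 0.0763), and the difference between H-25 and H-60 was kept.

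The remaining gene of this group, LOC109834252 (chromosome 3, 62922026 to 62925505), shared its gene name with *FLS*, but its Swiss-Prot description was Jasmonate-induced oxygenase 1, which in Arabidopsis hydroxylates and so inactivates jasmonic acid. It had 26.5, 6.28 and 8.94 FPKM at H-10, 270.4, 309 and 265 FPKM at H-25, 7.49, 8.98 and 37.1 FPKM at H-40, and 7.22, 5.23 and 6.67 FPKM at H-60. All H-25 libraries lay above all 9 others. It was the member with the largest rise from H-10 to H-25 (log2 difference 4.49, standard error 0.54, adjusted p = 0.00102) and the largest fall from H-25 to H-40 (log2 difference -4.25, standard error 0.54, adjusted p = 1.02e-04), and both calls were kept under every alternative run. With this gene the *FLS* and *F3H* group made up 41.7% to 44.6% of the summed FPKM of the 51 members at H-25 and 0.954% to 2.35% at H-40.

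P450 hydroxylases add hydroxyl groups to the B ring, and thereby set whether cyanidin or delphinidin types are formed. Flavonoid 3'-monooxygenase-like LOC109819797 (*F3'H*, chromosome 8) had 23.0, 91.8 and 27.7 FPKM at H-10, 20.0, 8.27 and 20.7 FPKM at H-25, 5.42, 3.00 and 2.87 FPKM at H-40, and 8.92, 2.61 and 3.02 FPKM at H-60. Its H-25 libraries lay above those of H-40. It fell between these stages (log2 difference -1.80, standard error 0.53, adjusted p = 0.0182), a call that was lost when replicate 1 or 3 of H-25 or replicate 2 or 3 of H-40 was left out (adjusted p up to 0.0701). It was lower at H-60 than at H-25 as well (log2 difference -1.62, adjusted p = 0.0237), and this call was lost when replicate 1 or 3 of H-25 or replicate 2 or 3 of H-60 was left out (adjusted p up to 0.0911).

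Another gene with the same 2 descriptions went the opposite way. LOC109837770 had 1.13, 1.001 and 0.574 FPKM at H-10, 1.59, 3.55 and 1.94 FPKM at H-25, 21.6, 42.7 and 29.5 FPKM at H-40, and 14.7, 18.1 and 14.6 FPKM at H-60. No library of H-40 or H-60 overlapped with H-10 or H-25, and the rise to H-40 had a log2 difference of 3.25 (standard error 0.28, adjusted p = 7.78e-06). Its lower level at H-60 than at H-40 was not called, except without H-40 replicate 1 (log2 difference -1.12). A further gene of this kind, LOC109837072, reached 3.31 FPKM and was called higher at H-60 than at H-25 (log2 difference 1.01, standard error 0.26, adjusted p = 0.00659). This last call lay at the fold limit and was lost without H-25 replicate 3 (0.978) or H-60 replicate 1 (0.708). It was also lost with quantile normalization and with H-10 replicate 2 and H-60 replicate 1 both left out.

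Flavonoid 3',5'-hydroxylase 1-like LOC109821928 had 12.2, 13.6 and 14.6 FPKM at H-10, 7.62, 7.74 and 6.44 FPKM at H-25, 30.0, 19.9 and 17.5 FPKM at H-40, and 19.5, 28.3 and 27.7 FPKM at H-60. The H-25 libraries were the lowest of the 12. The gene rose from H-25 to H-40 (log2 difference 1.47, standard error 0.21, adjusted p = 2.58e-04) without losing the call in any alternative. Its lower level at H-25 than at H-10 passed the adjusted p but not the fold criterion (log2 difference -0.81, adjusted p = 0.0452). The isoflavone 3'-hydroxylase-like gene LOC109821311, with the second description Cytochrome P450 81Q32, had 6.70 to 11.1 FPKM in the H-10 and H-25 libraries and 2.58 to 5.62 FPKM in those of H-40 and H-60. It was called lower at H-60 than at H-25 (log2 difference -1.15, standard error 0.27, adjusted p = 0.00378), though not without H-60 replicate 3 (-0.998).

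*DFR* and *LDOX* stand at the branch to anthocyanidins. *DFR* (LOC109843175, chromosome 5) had 10.2, 39.2 and 6.13 FPKM at H-10, 0.679, 0.629 and 0.897 FPKM at H-25, 1.53, 1.10 and 0.324 FPKM at H-40, and 7.76, 0.523 and 1.02 FPKM at H-60. All H-10 libraries lay above all those of H-25 and H-40, and H-60 replicate 1 lay within the H-10 range. The gene was lower at H-25 than at H-10 (log2 difference -3.09, standard error 0.67, adjusted p = 0.0200), a call that was lost if H-10 replicate 2 or H-25 replicate 1 or 3 was left out (adjusted p up to 0.0744), with only the 2 stages in the model and with limma voom.

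*LDOX* (leucoanthocyanidin dioxygenase-like LOC109849442, chromosome 7, 19031481 to 19033180) had the highest mean over the 12 libraries among the *CHS*, *CHI*, *F3H*, *FLS*, *DFR* and *LDOX* genes after *CHI* LOC109850014. It had 134, 381 and 102 FPKM at H-10, 50.02, 84.7 and 37.6 FPKM at H-25, 48.2, 61.6 and 27.4 FPKM at H-40, and 223, 29.8 and 42.3 FPKM at H-60. The H-10 libraries lay above those of H-25, but with this spread no comparison was called (H-10 vs. H-25, log2 difference -1.66, standard error 0.68, adjusted p = 0.167). A gene named putative dihydroflavonol 4-reductase (LOC109848345), with the Swiss-Prot description UDP-glucose 4-epimerase, an enzyme that interconverts UDP-sugars, varied least of the tested members, with 18.9 to 33.3 FPKM over all 12 libraries. Another gene described as dihydroflavonol 4-reductase, LOC109845108, had the second description Putative anthocyanidin reductase. It had 0.0443 FPKM in H-25 replicate 3 and 0 elsewhere.

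**Figure D3:**
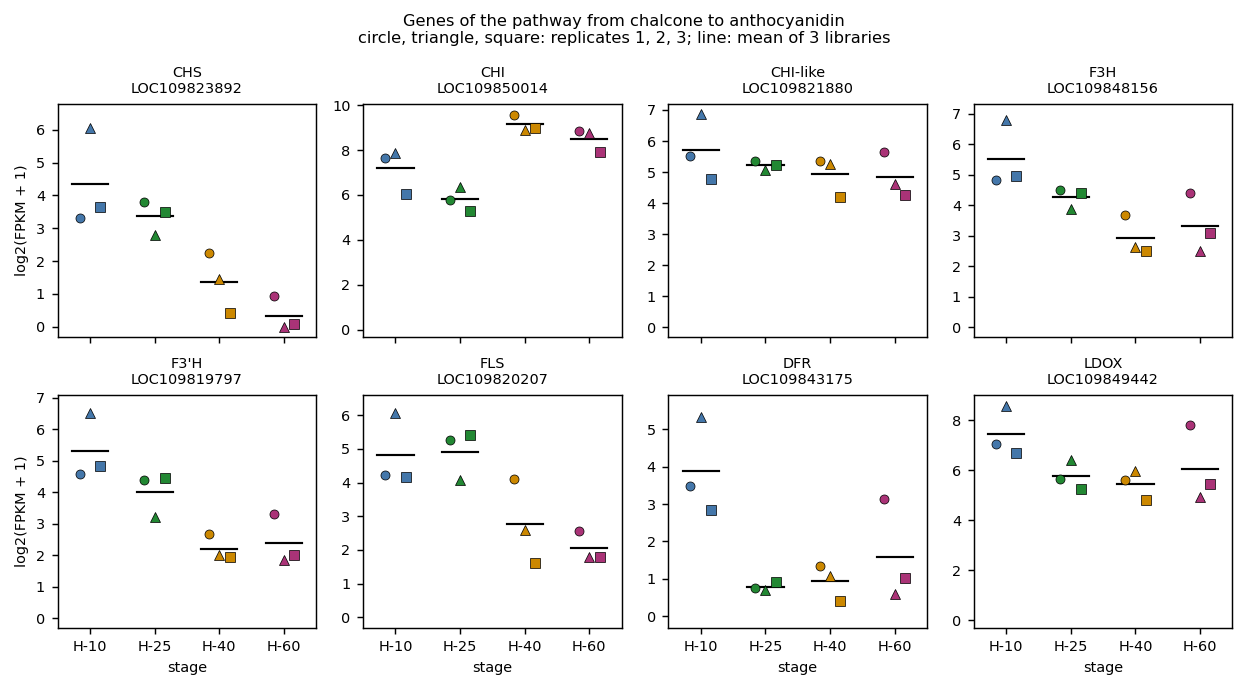
Level of 8 pathway genes, as log2(FPKM + 1) on the vertical axis, in the 3 libraries of each stage on the horizontal axis (circle, triangle and square for replicates 1, 2 and 3, line for the mean). H-10 replicate 2 is the highest point of H-10 in each of these panels, and *CHI* (LOC109850014) lies above its H-25 level at H-40 and H-60, where *CHS* (LOC109823892) and *FLS* (LOC109820207) lie below theirs.

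Within H-10, several pathway genes were far higher in replicate 2 than in the other libraries. Of the 31 tested members, 8 had at least 1 FPKM in H-10 replicate 2 and were there at least 2-fold above both other H-10 libraries (25.8%, against 1.40% of all tested genes). The ratio of this library to the mean of the other H-10 libraries was 6.45 for *CHS* LOC109823892, 4.79 for *DFR* LOC109843175, 3.88 for *F3H* LOC109848156, 3.80 for *FLS* LOC109820207, 3.62 for *F3'H* LOC109819797 and 3.24 for *LDOX* LOC109849442. For *CHI* LOC109850014 the ratio was 1.72, and for the isoflavone reductase-like gene LOC109845164 it was 0.889. At H-60 it was replicate 1 that stood out, where by the same rule 12 of the 31 members were at least 2-fold above both other libraries (38.7%, against 2.64% of all tested genes). The ratio there was 10.1 for *DFR*, 6.18 for *LDOX*, 3.27 for *F3H* and 3.16 for *F3'H*, and 5 members met the rule in both libraries. *CHS* LOC109823892 was not among them. Its ratio at H-60 was 37.7, but at 0.929 FPKM against 0 and 0.0493 FPKM it lay below the limit of 1 FPKM. The count was chosen after the values had been seen and is a description.

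Sums of the marker genes of epidermis and of green tissue were highest within their stages in the same libraries. The summed FPKM of 58 genes of epidermis and cuticle, of which 8 were at 0 throughout, was 6057, 11650 and 4873 in H-10 replicates 1 to 3 and 12911, 7119 and 6212 in H-60 replicates 1 to 3. Much of this sum came from a pair of lipid-transfer protein genes. In H-10 replicate 2 and H-60 replicate 1, LOC109830096 had 7185 and 4136 FPKM, and LOC109830094 had 2313 and 3367 FPKM. The 37 green tissue genes, of which 1 was at 0 throughout, summed to 8782, 12508 and 5975 FPKM at H-10 and to 14111, 12665 and 9817 FPKM at H-60. Heat shock genes, a sign of stress, summed to 6844, 3962 and 4483 FPKM at H-10 and to 3740, 3962 and 4013 FPKM at H-60, and so did not peak in these libraries. Nor did genes of dividing cells (3351, 5831 and 7005 FPKM, and 1298, 1207 and 1299 FPKM). The 24 genes named after the enzymes that supply coumaroyl-CoA did, with 178, 315 and 189 FPKM at H-10 and 2568, 2154 and 1633 FPKM at H-60. Secondary wall genes peaked in H-60 replicate 1 (4177 FPKM) but not in H-10 replicate 2 (341 FPKM, against 343 in replicate 1). At H-25 the epidermis and green sums were highest in replicate 2 (13112 FPKM, against 9280 and 7849, and 15729 FPKM, against 11797 and 11073). In that library *CHS* LOC109823892, *FLS* LOC109820207 and *F3'H* LOC109819797 were the lowest of H-25 and *LDOX* LOC109849442 was the highest. The part of these tissues in the high values of *CHS*, *DFR* and *LDOX* was not tested.

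The size of the differences from H-10 depended on this library. Without H-10 replicate 2, the log2 difference between H-10 and H-25 was -0.11 in place of -0.97 for *CHS* LOC109823892, -0.70 in place of -1.31 for *F3'H* LOC109819797 and -1.09 in place of -1.66 for *LDOX* LOC109849442. That of *FLS* LOC109820207 was 0.71 in place of 0.09. None of these 4 differences was called with or without that library. The log2 difference of *DFR* LOC109843175 was -2.37 in place of -3.09 with both H-10 replicate 2 and H-60 replicate 1 left out, of which only the first enters this difference. It was called in that fit, but not with H-10 replicate 2 alone left out.

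**Figure D4:**
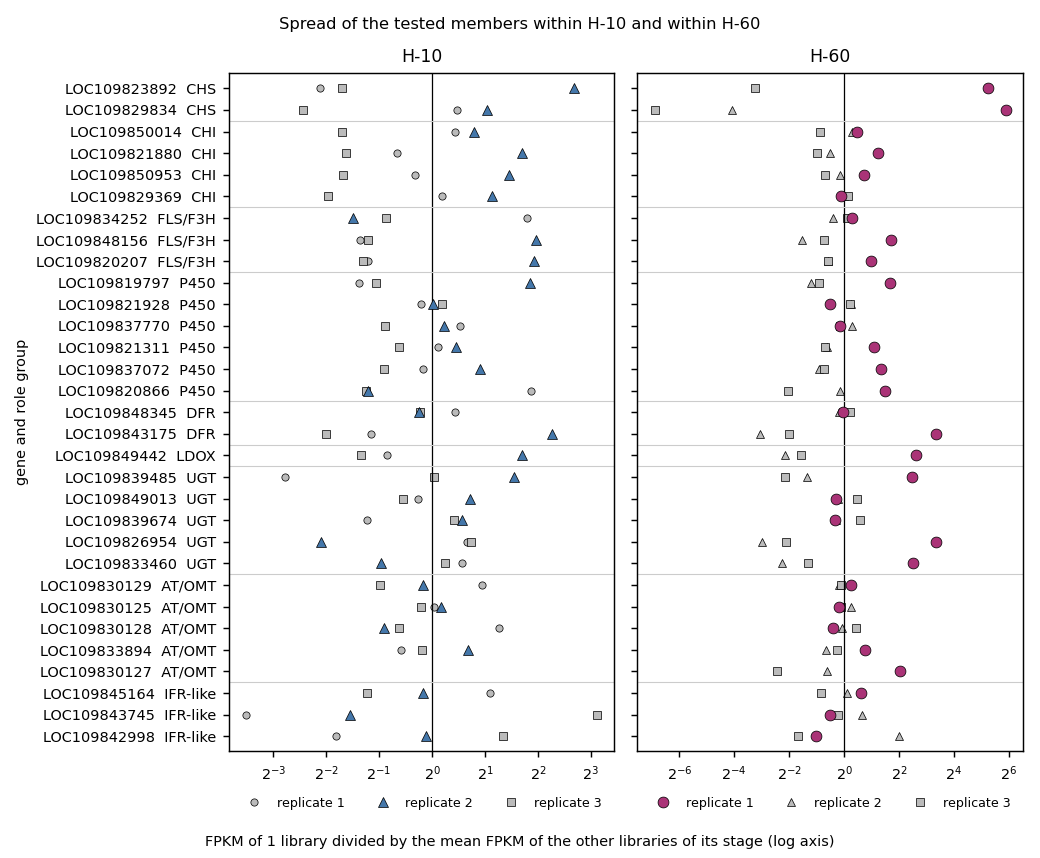
Ratio of each library to the mean of the other libraries of its stage (horizontal, log axis) for the tested members (vertical) within H-10 and within H-60. H-10 replicate 2 (blue triangles) lies right of 1 for *CHS* LOC109823892, *CHI* LOC109850014, *F3H* LOC109848156, *FLS* LOC109820207, *DFR* LOC109843175 and *LDOX* LOC109849442, as does H-60 replicate 1 (red circles). The latter lies at 10.1 for *DFR*, at 37.7 for *CHS* LOC109823892 and at 59.0 for LOC109829834. Values at 0 (LOC109830127 at H-10 and *CHS* in H-60 replicate 2) are not drawn.

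Sugars make anthocyanidins and flavonols stable and soluble. The most abundant glycosyltransferase gene, anthocyanidin 3-O-glucosyltransferase-like LOC109839485, had 5.57, 48.8 and 27.8 FPKM at H-10, 19.9, 1.93 and 20.4 FPKM at H-25, 7.12, 4.39 and 4.07 FPKM at H-40, and 8.93, 1.97 and 1.23 FPKM at H-60. Neighbouring stages overlapped, and no comparison was called with all libraries. Without H-25 replicate 2, its lower level at H-60 than at H-25 was called (log2 difference -2.39 in place of -1.44). The flavanone 7-O-glucoside 2''-O-beta-L-rhamnosyltransferase-like gene LOC109839674 (second description UDP-glucosyltransferase 29) rose from 0.755, 3.03 and 1.26 FPKM at H-25 to 3.95, 6.75 and 4.17 FPKM at H-40. This rise (log2 difference 1.21, standard error 0.32, adjusted p = 0.0109) was lost without H-25 replicate 1 or H-40 replicate 2 (adjusted p up to 0.0536). The anthocyanidin 5,3-O-glucosyltransferase-like gene LOC109826954 (second description UDP-glycosyltransferase 88F4) fell from 2.23, 1.36 and 1.64 FPKM at H-25 to 0, 0.0894 and 0.202 FPKM at H-40 (log2 difference -1.31, standard error 0.46, adjusted p = 0.0402), and the call was lost without any 1 of H-25 replicates 1 and 3 and the 3 H-40 libraries (adjusted p up to 0.122). That call was also lost without the filter on low values. The gene had 4.86 FPKM in H-60 replicate 1 and 0.343 and 0.607 FPKM in the other H-60 libraries. A C-glucosyltransferase-like gene (LOC109849013, second description UDP-glycosyltransferase CGT) had a mean of 4.66 FPKM at H-25 and of 10.0 FPKM at H-40, which passed the adjusted p (0.00994) but, at a log2 difference of 0.96, not the fold criterion. It passed that too if H-25 replicate 2 (1.14) or replicate 1 (1.07) or 3 (1.02) of H-40 was left out.

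Methyl and acyl groups are added last. Among these genes 5 were called flavonoid 3',5'-methyltransferase-like, and all 5 had a norbelladine 4'-O-methyltransferase as second description, an enzyme of alkaloid synthesis in Narcissus. Of these 4 lay in a run on the minus strand of chromosome 2 (Aspof.V1), in the order LOC109830125 (7974173 to 7977012), LOC109830127 (8009051 to 8013062), LOC109830128 (8101896 to 8104984) and LOC109830129 (8126755 to 8131021). On the same strand just before LOC109830125 lies a caffeoyl-CoA O-methyltransferase-like gene (LOC109830124), which is no member and had 5.26 to 6.78 FPKM at H-25 and 16.3 to 20.5 FPKM at H-40. The sources used here do not say how fragments that fit several such copies were counted.

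These neighbours differed in direction. LOC109830125 had 9.82, 10.4 and 8.72 FPKM at H-10, 2.12, 3.77 and 2.29 FPKM at H-25, 76.5, 74.6 and 75.7 FPKM at H-40, and 153, 187 and 159 FPKM at H-60. No stage overlapped with another in this gene. It was called in every comparison, with log2 differences of -1.54 from H-10 to H-25 (adjusted p = 9.72e-04), 4.39 in the step to H-40 (adjusted p = 8.94e-08) and 1.12 from H-40 to H-60 (adjusted p = 0.00269), each with a standard error of 0.17, and all these calls were kept under every alternative run.

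LOC109830128 followed the same course at a lower level. It had 2.27, 0.874 and 1.02 FPKM at H-10, 0.324, 1.995 and 0.312 FPKM at H-25, 11.7, 22.4 and 11.7 FPKM at H-40, and 42.5, 49.9 and 62.8 FPKM at H-60. Its H-10 and H-25 libraries overlapped, whereas the H-40 libraries lay above both and the H-60 libraries above all. It rose from H-25 to H-40 (log2 difference 3.17, standard error 0.36, adjusted p = 5.51e-05) and from H-40 to H-60 (log2 difference 1.74, standard error 0.36, adjusted p = 0.0136). The second rise was lost when replicate 1 or 3 of H-40 or replicate 2 or 3 of H-60 was left out (adjusted p up to 0.0620), and with a pseudocount of 0.1.

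LOC109830129, which lies 21.8 kb from LOC109830128 with no gene between them, fell instead. It had 227, 142 and 92.9 FPKM at H-10, 188, 169 and 164 FPKM at H-25, 45.3, 79.3 and 64.4 FPKM at H-40, and 62.1, 50.6 and 52.5 FPKM at H-60. All libraries of H-10 and H-25 lay above all those of H-40 and H-60. The fall from H-25 to H-40 had a log2 difference of -1.48 (standard error 0.28, adjusted p = 0.00160) and was kept under every alternative run. LOC109830127 was at 0 in all H-10 libraries, in 2 of 3 at H-25, and at 0.0827 to 1.07 FPKM at H-40, and had 3.94, 1.44 and 0.497 FPKM at H-60. It was called higher at H-60 than at H-25 (log2 difference 1.36, adjusted p = 0.00950), but passed the filter by 3 libraries only, so that leaving out any of these removed it from the test. In the summed FPKM of all 9 transferase genes H-25 (174 to 197 FPKM) and H-40 (140 to 180 FPKM) overlapped, and H-60 lay above both (267 to 292 FPKM). The acyltransferase gene LOC109833894, described as anthocyanin 5-aromatic acyltransferase-like, lay between 2.38 and 6.98 FPKM and was not called.

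Isoflavone reductase-like proteins are named after an enzyme of legumes, and relatives in other plants reduce lignans. Of the 5 genes 3 were tested, and all 3 rose from H-25 to H-40. LOC109845164 (chromosome 6, 12949087 to 12952223) had 59.4, 35.4 and 20.2 FPKM at H-10, 3.80, 18.6 and 13.1 FPKM at H-25, 1781, 1088 and 973 FPKM at H-40, and 4004, 3222 and 1990 FPKM at H-60. All its H-60 libraries lay above all those of H-40, and all of these above the earlier stages. The rise to H-40 was 108-fold in mean FPKM, while the difference between H-40 and H-60 was not called (log2 difference 1.25, standard error 0.51, adjusted p = 0.167). This gene alone made up 0.485% to 2.29% of the summed FPKM of the 51 members at H-25 and 73.4% to 77.7% at H-60. Without it the members summed to 719 to 794 FPKM at H-25 and to 723 to 1189 FPKM at H-60.

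The other isoflavone reductase-like genes were far lower. LOC109843745 had 0.200, 0.694 and 3.87 FPKM at H-10, 0.0961, 0.329 and 0.0462 FPKM at H-25, 14.9, 9.62 and 22.5 FPKM at H-40, and 9.50, 15.99 and 10.9 FPKM at H-60. Its rise from H-25 to H-40 had a log2 difference of 3.78 (standard error 0.45, adjusted p = 6.97e-05). It has a neighbour of the same description, LOC109843737, at 11.4 kb, which did not exceed 0.206 FPKM. LOC109842998 had 0 to 0.112 FPKM at H-25 and 2.42, 11.7 and 1.87 FPKM at H-40 (log2 difference 2.25, standard error 0.59, adjusted p = 0.0103). In LOC109842998 the H-25 libraries lay below all others, and in LOC109843745 they overlapped with H-10 only.

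**Figure D5:**
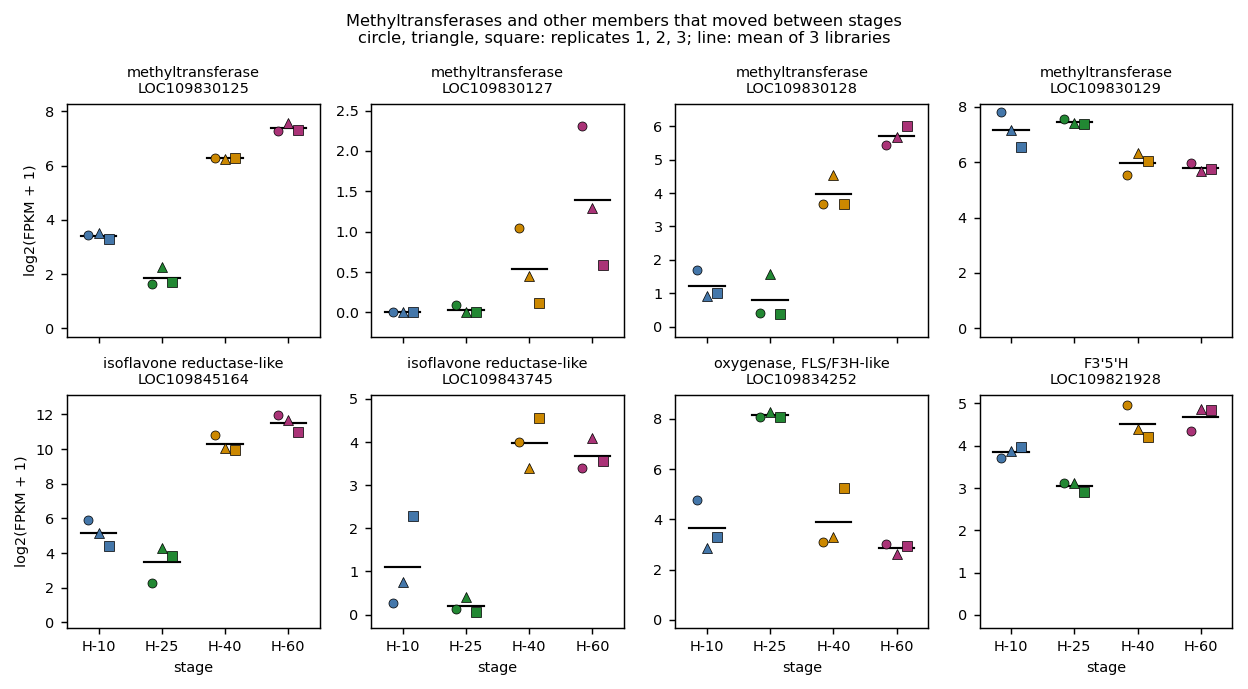
Level of 8 further members as log2(FPKM + 1) in the 3 libraries of each stage (circle, triangle and square for replicates 1, 2 and 3, line for the mean). The methyltransferases LOC109830125 and LOC109830128 rise where their neighbour LOC109830129 falls, and LOC109834252 is high at H-25 only among these 4 stages.

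From H-25 to H-40, genes of the entry to phenylpropanoids moved opposite to *CHS* LOC109823892. They were chosen by the names of the enzymes that supply coumaroyl-CoA. The list takes in 4-coumarate--CoA ligase-like genes, whose part in this supply was not tested. From H-10 to H-25, where *CHS* was not called, 0 of the 18 tested genes rose and 2 fell (against 1.54% and 2.91% of all tested genes). Of 18 tested genes, 12 rose and 0 fell in the step to H-40 (against 11.9% higher and 12.2% lower of all tested genes, with a median log2 difference of 1.56 beside 0.01), and their summed FPKM (24 genes) went from 122 to 228 at H-25 to 1144 to 1716 at H-40. Cinnamate 4-hydroxylase LOC109846559 (*C4H*) had 51.8 ± 30.3 FPKM at H-25 and 547 ± 56.9 FPKM at H-40 (mean ± SD, n = 3), with a log2 difference of 3.51 (limma, adjusted p = 2.91e-05). The 4-coumarate--CoA ligase gene LOC109840460 went from 16.1 ± 7.48 to 318 ± 119.5 FPKM (log2 difference 4.25) and the phenylalanine ammonia-lyase gene LOC109826061 from 25.6 ± 16.2 to 338 ± 132 FPKM (log2 difference 3.76). These enzymes supply the lignin branch too, where 8 of 35 tested genes rose and 2 fell (against 11.9% and 12.2% of all tested genes, median log2 difference 0.25). The most abundant of them were a cinnamyl alcohol dehydrogenase gene (LOC109841100, 49.0 ± 33.9 and 546 ± 112 FPKM), a cinnamoyl-CoA reductase gene (LOC109843987, 75.9 ± 34.7 and 187 ± 5.69 FPKM) and a caffeoyl-CoA O-methyltransferase gene (LOC109835762, 5.12 ± 2.22 and 135 ± 14.0 FPKM), all called higher at H-40. Marker genes of secondary walls moved with them, 15 of 18 tested being higher at H-40 and 0 lower, and markers of dividing cells moved against them, 2 of 42 being higher and 30 lower. The wall markers (23 genes, 0 of them at 0 throughout) summed to 123 to 435 FPKM at H-25 and 2785 to 3267 FPKM at H-40, and the division markers (54 genes, 7 at 0 throughout) to 4333 to 9781 FPKM and 1232 to 1877 FPKM. The part of these tissues in the changes of the members was not tested.

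Malonyl-CoA, the other substrate of *CHS*, is made by acetyl-CoA carboxylase. By name, 7 genes matched this enzyme or its biotin carboxylase and biotin carboxyl carrier parts, and all were tested. Of these 0 were called from H-10 to H-25 (against 4.45% of all tested genes). From H-25 to H-40, 1 fell (against 12.2% of all tested genes, median log2 difference -0.88 beside 0.01). It was the biotin carboxyl carrier gene LOC109822049, from 60.0 ± 7.88 to 19.4 ± 2.37 FPKM (log2 difference -1.58, adjusted p = 2.51e-05). The other genes of this list, such as the biotin carboxylase gene LOC109820668 (73.6 ± 14.1 and 42.4 ± 5.48 FPKM) and the carrier gene LOC109821223 (68.2 ± 8.91 and 37.1 ± 9.02 FPKM), did not reach the fold criterion in that step. The descriptions of LOC109820668 and LOC109821223 name the chloroplast, and whether the genes of this list supply *CHS* was not tested. Between H-25 and H-60, 4 of the 7 were lower (against 16.2% of all tested genes).

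Of 6 tested genes whose names match known regulators, 3 fell from H-25 to H-40 and 0 rose (against 12.2% lower and 11.9% higher of all tested genes, median log2 difference -0.84). They included MYB124 (LOC109833888), which in Arabidopsis acts in stomatal divisions and was caught by its name, with 10.4 ± 0.626 and 3.75 ± 3.16 FPKM. The regulators MYB12-like (LOC109831869; log2 difference -1.11, adjusted p = 0.0398), of a family that in Arabidopsis switches on *CHS* and *FLS*, and MYB114-like (LOC109833295), of a family that switches on anthocyanin genes, were the others. MYB12-like was near the floor, with 1.92, 0.346 and 2.53 FPKM at H-25 and 0, 0 and 0.386 FPKM at H-40, and these libraries overlapped. The fall of MYB114-like had a log2 difference of -1.43 (adjusted p = 0.0340), and it rose again from H-40 to H-60 (log2 difference 2.07, adjusted p = 0.0248). It had 4.59, 9.49 and 4.61 FPKM at H-10, 4.90, 1.12 and 5.12 FPKM at H-25, 1.45, 0.206 and 0.311 FPKM at H-40, and 10.7, 3.24 and 4.74 FPKM at H-60, and was highest in H-10 replicate 2 and H-60 replicate 1 within their stages. HY5-like (LOC109831466), a factor of light signaling that binds promoters of flavonoid genes in Arabidopsis, had 24.6 ± 6.91 and 18.2 ± 2.15 FPKM at H-25 and H-40 and was not called in that step (log2 difference -0.38, adjusted p = 0.233). HY5 (LOC109839498) had 13.4 ± 2.23 and 8.93 ± 2.73 FPKM and was called lower at H-60 than at H-25 (log2 difference -1.30, adjusted p = 0.00333).

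Carriers of the DETOXIFICATION family, some of which move flavonoids into the vacuole, were mixed, 5 of the 24 tested genes rising and 3 falling from H-25 to H-40 (against 11.9% and 12.2% of all tested genes, median log2 difference -0.16). DETOXIFICATION 40-like (LOC109833545) had 154 ± 45.6 and 102 ± 8.34 FPKM and was not called (adjusted p = 0.0539), DETOXIFICATION 27-like (LOC109833994) had 83.2 ± 3.89 and 98.3 ± 16.2 FPKM, and DETOXIFICATION 42-like (LOC109822329) rose from 11.05 ± 15.8 to 90.3 ± 35.7 FPKM (log2 difference 3.79, adjusted p = 0.00151). DETOXIFICATION 35 (LOC109847289), whose relative in Arabidopsis is a flavonoid transporter of flowers, had 10.95, 62.6 and 19.4 FPKM at H-10 and 15.6, 3.58 and 4.71 FPKM at H-60, so that H-10 replicate 2 and H-60 replicate 1 were the highest libraries within their stages, as for *DFR* and *LDOX*. DETOXIFICATION 35, MYB114-like and MYB12-like were named after their values had been seen.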

How the data were processed

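Total RNA of the 12 stem libraries was sequenced with a strand-specific protocol. The authors aligned reads with HISAT2, assembled with StringTie, counted with featureCounts and deposited FPKM values per gene, with gene descriptions and 4 group means that were not used here. Versions and options are not given in the sources used here. Gene coordinates in the table equal those of RefSeq Aspof.V1 for all 32237 genes with a RefSeq ID. The members and lists were chosen with earlier results of these data known.

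Log2(FPKM + 1) values were fitted with limma 3.58.1 (R 4.3.3) with 1 mean per stage over all 12 libraries, an empirical Bayes trend and 20352 genes (3 or more libraries with an FPKM of at least 1), and p-values were adjusted by Benjamini-Hochberg. A gene was called at an adjusted p of at most 0.05 and a log2 difference of at least 1. The script was tested on simulated data. Tables and plots used Python 3.11.15, numpy 2.4.6, pandas 2.3.3 and matplotlib 3.10.9. Fragments were recovered from FPKM times gene length and tested with limma voom as an alternative. It called 958 genes (905 in the FPKM fit) in H-10 vs. H-25, 5540 (4897) in H-25 vs. H-40, 932 (1080) in H-40 vs. H-60 and 7303 (6615) in H-25 vs. H-60. Limits of 3 fragments for genes at 0 cover counting error only.

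Genes were named by rule: per comparison up to 8 called members each way, per role group the 3 with the highest mean FPKM and all of groups with at most 4 tested, members within 100 kb of each other, and the 3 most abundant tested genes per other pathway list. After the table had been read, the spelling chalcone--flavonone was added to the *CHI* group and malonyltransferases were placed with the acyl transferases.

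Deviations from the stage mean of libraries with the same replicate number had r = 0.115, 0.123 and 0.105 over genes in H-40 vs. H-60. Libraries with different numbers were not compared, and the labels tie no replicate across heights, so that pairing by number was not established. A replicate block was run as an alternative. In H-40 vs. H-60 it left the 2 calls of members and gave 1161 calls over all genes in place of 1080. In the other comparisons at least 1 number had r of 0.1 or less, though r reached 0.331 for replicate 1 in H-25 vs. H-40.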

Additional observations from a re-analysis of the deposited data

How the results depend on the processing

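The number of members called (3 in H-10 vs. H-25, 16 in H-25 vs. H-40, 2 in H-40 vs. H-60, and 18 in H-25 vs. H-60) stayed within 1.5 times of itself under the alternatives run, with these exceptions. In H-10 vs. H-25 it was 6 with TPM and 9 with unadjusted p, and in H-40 vs. H-60 it was 1 with a pseudocount of 0.1 and 4 with unadjusted p. Leaving out 1 library gave 2 to 5, 10 to 18, 1 to 2 and 16 to 19 calls in these comparisons. With the replicate block the counts were 4, 16, 2 and 18. The block added *CHI* LOC109850014 in H-10 vs. H-25, where same-numbered libraries had r from 0 to 0.239, and removed no call of a member. For single members, 3050 values kept direction and side of the threshold, 56 passed only in the alternative, 46 failed only in it and 0 reversed.

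Over all genes, 905 were called in H-10 vs. H-25, but 205 with these stages alone in the model, 1631 with unadjusted p and 325 to 2036 without 1 library. In H-40 vs. H-60, 1080 were called, but 625 with a mean FPKM of at least 5, 1643 with unadjusted p and 498 to 1276 without 1 library. Without the fold criterion 8164 and 10194 were called in H-25 vs. H-40 and H-25 vs. H-60, against 4897 and 6615. Without 1 library these counts were 3964 to 6143 and 5940 to 7642. With H-10 replicate 2 and H-60 replicate 1 left out, an alternative added after seeing the data, 283 were called in H-10 vs. H-25 and 485 in H-40 vs. H-60. Why these counts moved was not tested. With 3 libraries per stage, the log2 differences from H-10 to H-25 of *CHS* LOC109823892 (-0.97), *F3'H* LOC109819797 (-1.31) and *LDOX* LOC109849442 (-1.66) were not called.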
